A study of Homo sapiens with 30 samples.

Results

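The 9 genes described here (FHIT, WWOX, MACROD2, PTPRD, DLG2, LSAMP, IMMP2L, CSMD1 and DMD) are very long protein-coding genes that lie in or near common fragile sites. They were taken by name, and all 9 were found by gene ID in each of the 3 deposited tables, which list 68608 genes in all. RNA had been sequenced from the established neuroblastoma cell lines SK-N-BE(2)c, NGP and IMR32 (3 in all) after lipofection of an antisense oligonucleotide (ASO) at 100 nM. ASO1, ASO2 and ASO10 target NESPR, a long non-coding RNA, and NCA is a negative control ASO. IMR32 has ASO1, ASO2 and NCA groups with 4 libraries each. NGP and SK-N-BE(2)c have ASO2, ASO10 and NCA groups with 3 libraries each, so the 9 groups hold 30 libraries. All groups, controls included, had been transfected, and the labels describe no untransfected group.

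Common fragile sites are stretches of the genome that break when DNA replication is slowed. Many of them coincide with very long genes, where replication origins are sparse, replication finishes late and transcription of a single copy takes hours. Several of these genes are recurrently deleted in tumours, and PTPRD and DLG2 have been studied as candidate tumour suppressors in neuroblastoma. Some of the 9 encode enzymes: FHIT is a diadenosine polyphosphate hydrolase, WWOX an oxidoreductase with WW domains, MACROD2 an enzyme that removes ADP-ribose from proteins and IMMP2L a subunit of the inner mitochondrial membrane peptidase. Others act at the cell surface or the synapse: PTPRD is a receptor-type tyrosine phosphatase, LSAMP an adhesion protein with immunoglobulin domains, CSMD1 a membrane protein that inhibits complement, and DLG2 a scaffold of the postsynaptic density. DMD encodes dystrophin, which links the actin cytoskeleton to a membrane complex.

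Their length held in the annotation. In the GENCODE 29 annotation their spans ran from 0.899 Mb for IMMP2L to 2.30 Mb for PTPRD, against a median of 27.1 kb over 19951 protein-coding genes. Only 68 coding genes span over 1 Mb, and 8 of the 9 are among them; IMMP2L ranks 95. PTPRD, DMD, DLG2, CSMD1 and MACROD2 take ranks 3 to 7. Exons cover little of these spans, from 0.362% in FHIT to 0.908% in CSMD1. PTPRD is on chromosome 9, DMD on X, DLG2 on 11, CSMD1 on 8, MACROD2 on 20, FHIT and LSAMP on 3, WWOX on 16 and IMMP2L on 7. No exon base is shared with another gene on the same strand. On the opposite strand 2.08% of DLG2, 1.418% of MACROD2 and 0.508% of CSMD1 exon bases are shared, and whether the authors counted by strand is not given in the sources used here.

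Promoter windows are shown for 4 genes, because FHIT, IMMP2L and LSAMP were among the members called lower in 3 or more contrasts and WWOX was called in none. Each holds the 250 bases before a transcription start in RefSeq (GRCh38.p14), written 5' to 3' on the gene's strand. Capitals mark GGGCGG (a GC box), TATAAA and CCAAT, searched on both strands.
FHIT (chr3:61251453-61251702): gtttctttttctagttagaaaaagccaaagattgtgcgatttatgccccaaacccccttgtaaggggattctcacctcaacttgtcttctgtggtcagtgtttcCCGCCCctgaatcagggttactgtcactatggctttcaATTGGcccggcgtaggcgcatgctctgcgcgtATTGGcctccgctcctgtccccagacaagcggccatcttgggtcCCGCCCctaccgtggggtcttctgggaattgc
IMMP2L (chr7:111562493-111562742): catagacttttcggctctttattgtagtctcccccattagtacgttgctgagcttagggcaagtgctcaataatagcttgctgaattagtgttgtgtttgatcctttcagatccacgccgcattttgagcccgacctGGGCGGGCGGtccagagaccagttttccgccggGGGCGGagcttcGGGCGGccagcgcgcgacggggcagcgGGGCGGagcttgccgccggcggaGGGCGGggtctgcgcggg
LSAMP (chr3:116445488-116445737): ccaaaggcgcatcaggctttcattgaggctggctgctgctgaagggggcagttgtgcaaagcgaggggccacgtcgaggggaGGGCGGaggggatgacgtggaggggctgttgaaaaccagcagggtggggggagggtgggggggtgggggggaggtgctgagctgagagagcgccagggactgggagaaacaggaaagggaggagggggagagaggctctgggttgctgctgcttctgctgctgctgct
WWOX (chr16:78099404-78099653): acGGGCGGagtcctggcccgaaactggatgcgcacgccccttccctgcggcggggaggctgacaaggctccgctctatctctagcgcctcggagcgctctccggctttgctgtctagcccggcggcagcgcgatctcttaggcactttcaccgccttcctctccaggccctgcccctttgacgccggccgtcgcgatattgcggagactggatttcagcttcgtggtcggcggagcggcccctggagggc
GGGCGG or its reverse complement lies in 42.6% of the 35116 promoter windows of that table, CCAAT in 32.0% and TATAAA in 10.7%. The IMMP2L window holds 6 GC boxes, 2 of which overlap, the FHIT window 2 and the WWOX and LSAMP windows 1 each. The FHIT window also holds 2 CCAAT motifs, and none of the 4 windows holds TATAAA. GC content was 67.6% for WWOX, 65.2% for LSAMP, 61.6% for IMMP2L and 54% for FHIT, against a median of 58%. FHIT has another window at a second start (chr3:60080910-60081159), not shown, with 0 GC boxes, 1 CCAAT motif and a GC content of 43.6%. These matches describe letters only.

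Library facts bear on all values. Reads recovered per library ran from 9393587 to 15060356. NESPR (LINC00682) was lower than in NCA in all 6 contrasts, by log2 fold changes of -0.46 to -0.82 with adjusted p of at most 0.000144. All 10 adrenergic neuroblast markers had a mean of at least 10 in every group. Of these 10, 4 were called lower with each ASO in IMR32, 6 (ASO2) and 7 (ASO10) in NGP, and 5 and 7 in SK-N-BE(2)c, while 1, 0, 2, 1, 4 and 0 were called higher in that order. The shares of all tested genes called lower were 14.4%, 14.8%, 28.1%, 27.6%, 33.4% and 31.1% in the same order. The shares called higher were 13.6%, 17.6%, 30.6%, 26.8%, 33.6% and 27.8%. Their sum was lower than in NCA without overlap in NGP (46363 to 47545 with ASO2 and 44965 to 46402 with ASO10, against 53344 to 53726) and with ASO10 in SK-N-BE(2)c (53415 to 55321 against 58681 to 64229). Summed mesenchymal markers were higher with ASO2 than in NCA in all lines (NGP 13722 to 14635 against 9906 to 10042, IMR32 4245 to 4482 against 3168 to 3641, SK-N-BE(2)c 3791 to 3873 against 2745 to 2909). They were higher with ASO10 too, at 3555 to 3799 in SK-N-BE(2)c and 11238 to 11934 in NGP. Most of this sum was VIM (vimentin), at 13262 with ASO2 in NGP, and other markers of the list did not all move its way: 1 of 5 tested was called lower with each ASO in NGP and 1 of 4 with ASO2 in SK-N-BE(2)c. With ASO10 in SK-N-BE(2)c VIM stood at 3469. There 1 of 4 tested was called higher and 0 lower, and the median log2 fold change of the 4 was -0.36. Summed markers of other cells lay above NCA in all 6 contrasts. With ASO10 they stood at 309 to 375 against 107 to 114 in NGP and at 231 to 280 against 60.7 to 83.7 in SK-N-BE(2)c. With ASO2 they stood at 135 to 189 in SK-N-BE(2)c and 122 to 153 in NGP, and in IMR32 at 148 to 178 (ASO1) and 141 to 161 (ASO2) against 120 to 137. ACTA1, a muscle actin, was the largest part of the ASO10 sums, at 193 ± 24.8 in SK-N-BE(2)c and 202 ± 13.4 in NGP (SD, n = 3 each). Of the leukocyte genes, CD3E was at 0 in every library and PTPRC in every NGP library. LYZ (lysozyme) was higher with ASO10 than with NCA in NGP (80.9 to 111 against 20.5 to 23.0). With ASO2 in NGP it was lower (10.0 to 13.9). In SK-N-BE(2)c LYZ stood at 6.14 to 7.74 with ASO10 against 0 to 2.02 with NCA. The part of these markers in the results below was not tested. In cultures a smaller share of cells with a transcript and less of it per cell cannot be told apart.

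Levels of the 9 genes differed widely within each line. Values are normalized counts, the authors' counts divided by a size factor of each library, and levels are compared between genes per kb of merged exon. In the IMR32 controls LSAMP was highest, at 208 ± 8.34 per kb (SD, n = 4), followed by IMMP2L at 63.5 ± 6.70 and WWOX at 62.8 ± 5.56, which overlapped. PTPRD stood at 40.6 ± 2.99, DLG2 at 16.3 ± 1.95, FHIT at 10.99 ± 1.25, DMD at 9.22 ± 0.896 and MACROD2 at 5.58 ± 0.820 per kb. Of these neighbours only FHIT and DMD overlapped. CSMD1 was listed at 0 in all 12 IMR32 libraries.

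In the NGP controls WWOX led, at 17.7 ± 1.56 per kb (SD, n = 3). IMMP2L (6.41 ± 1.013), FHIT (5.21 ± 0.925) and DMD (5.11 ± 0.179) overlapped in turn, followed by LSAMP at 4.47 ± 0.0183. The lowest were PTPRD at 2.34 ± 0.530, CSMD1 at 1.28 ± 0.145, DLG2 at 0.883 ± 0.336 and MACROD2 at 0.791 ± 0.226. DLG2 overlapped CSMD1 and MACROD2, which did not overlap each other. NGP was the line with reads of all 9 genes. In the SK-N-BE(2)c controls LSAMP was again highest (29.8 ± 3.02 per kb), and no neighbours with reads overlapped down through IMMP2L (14.1 ± 0.984), WWOX (7.68 ± 0.753), DLG2 (5.11 ± 0.446), DMD (4.09 ± 0.170), FHIT (2.78 ± 0.263) and MACROD2 (0.816 ± 0.232). PTPRD and CSMD1 were listed at 0 in all 9 SK-N-BE(2)c libraries.

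The NGP and SK-N-BE(2)c tables were scaled jointly, so their control levels could be tested (limma, difference NGP minus SK-N-BE(2)c). Of the 5 members over the filter in each line on its own, 4 differed, where 77% of all genes did, so the share is near the background. PTPRD and FHIT passed the joint filter only, through their NGP reads, and are left out of that count. LSAMP was lower in NGP by a log2 fold change of -2.71 (SE 0.137, adjusted p = 5.06e-15), with 46.1 to 46.4 normalized counts in NGP against 289 to 344. DLG2 was lower by -2.52 (SE 0.320, adjusted p = 1.34e-07) and IMMP2L by -1.11 (SE 0.381, adjusted p = 0.0107). WWOX was higher in NGP by 1.182 (SE 0.217, adjusted p = 2.80e-05). PTPRD was at least 8.67-fold higher in NGP, measured against a floor of 3 reads per library, and CSMD1, below the filter for that test, at least 7.91-fold. The value of DMD (0.32, adjusted p = 0.0683) did not pass. FHIT stood at 23.7 to 33.7 normalized counts in the NGP controls and 14.1 to 16.7 in those of SK-N-BE(2)c. As it entered the joint test through its NGP reads, no p-value is given for it.

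Each NESPR ASO was then compared with NCA of its line. A gene was tested where its mean over all libraries of the line was at least 10, and called at an adjusted p under 0.05. That left 8 of the 9 genes in IMR32 (not CSMD1), 8 in NGP (not MACROD2) and 5 in SK-N-BE(2)c (not PTPRD, CSMD1, FHIT or MACROD2). Over the 6 contrasts 42 pairs of gene and contrast were tested, of which 37 had a negative log2 fold change and 17 were called, all of them lower. Of all tested genes, 14.4% to 33.4% were called lower in a contrast. Their share of negative values was not counted, and their median log2 fold change lay between -0.03 and 0.01. The contrasts of a line share their control libraries, so the 2 ASOs of a line are not separate evidence.

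In IMR32, ASO1 lowered 4 of 8 members, where 14.4% of all tested genes were called lower. ASO2 lowered the same 4 genes, FHIT, PTPRD, LSAMP and IMMP2L, against 14.8% of all tested genes. In NGP, ASO2 lowered 2 of 8 (PTPRD and IMMP2L), close to the 28.1% of all genes, and ASO10 lowered 1 of 8 (FHIT), under the 27.6% of all genes. In SK-N-BE(2)c, ASO2 lowered 2 of 5 (DLG2 and LSAMP), near the 33.4% of all genes, and ASO10 lowered 4 of 5 (DLG2, LSAMP, IMMP2L and DMD) against 31.1%. No member was called higher (limma; 0 with edgeR and 0 with DESeq2 as well), while of all tested genes 13.6% (ASO1) and 17.6% (ASO2) were in IMR32, 30.6% (ASO2) and 26.8% (ASO10) in NGP and 33.6% (ASO2) and 27.8% (ASO10) in SK-N-BE(2)c. The median log2 fold change of the tested members was -0.31 and -0.28 in IMR32 (ASO1, ASO2), -0.45 and -0.34 in NGP (ASO2, ASO10) and -0.58 and -0.66 in SK-N-BE(2)c (ASO2, ASO10). The medians over all tested genes lay between -0.03 and 0.01. Depth differed: of the tested members, 1 of 8 in IMR32, 6 of 8 in NGP and 2 of 5 in SK-N-BE(2)c had a mean under 50.

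**Figure D1:**
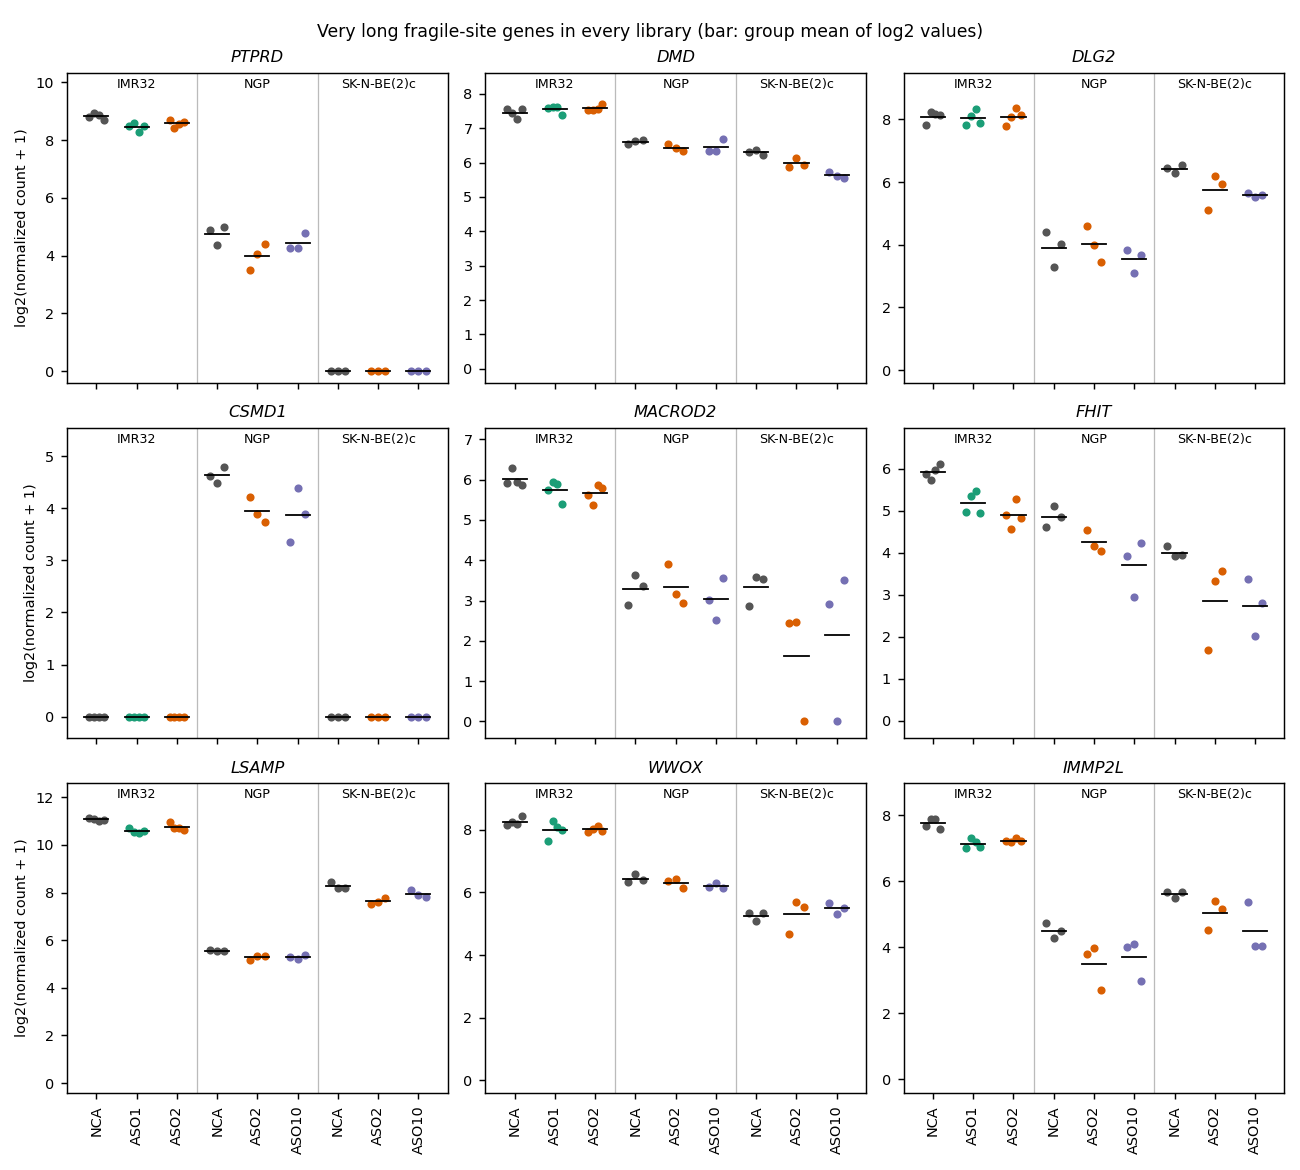
Every library's log2(normalized count + 1) for the 9 genes, by line and ASO, with the group mean of the log2 values as a bar. The FHIT points of both ASOs lie below all NCA points in IMR32, and CSMD1 has points above 0 in NGP alone.

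Among the enzymes, FHIT was called lower in 3 of the 4 contrasts that could test it. In IMR32 it stood at 57.8, 51.8, 61.5 and 68.0 normalized counts with NCA, at 30.1, 39.9, 43.6 and 30.1 with ASO1 and at 28.9, 22.6, 37.7 and 27.4 with ASO2. Neither ASO group overlapped NCA. The log2 fold change was -0.73 with ASO1 (SE 0.174, adjusted p = 0.00336) and -1.03 with ASO2 (SE 0.174, adjusted p = 0.000169). In NGP the values were 23.7, 33.7 and 27.7 with NCA, 22.3, 16.8 and 15.6 with ASO2 and 14.3, 6.66 and 17.8 with ASO10. All ASO libraries lay below all NCA libraries. FHIT fell with ASO10 (-1.16, SE 0.336, adjusted p = 0.00514), while ASO2 gave -0.61 (SE 0.336, adjusted p = 0.121). Without ASO10 replicate 2, the library at 6.66, the ASO10 value was -0.78 (adjusted p = 0.0513). FHIT was under the filter in SK-N-BE(2)c, at 14.1 to 16.7 with NCA, 2.21 to 10.8 with ASO2 and 3.07 to 9.30 with ASO10. When every gene with a read was tested, these gave -1.15 (adjusted p = 0.131) and -1.27 (adjusted p = 0.0885).

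IMMP2L had a negative log2 fold change in all 6 contrasts and was called in 4. In IMR32 its normalized counts were 205, 234, 237 and 190 with NCA, 127, 159, 147 and 131 with ASO1 and 147, 146, 159 and 149 with ASO2, with no overlap with NCA. It fell by 0.62 with ASO1 (SE 0.0930, adjusted p = 4.37e-05) and by 0.52 with ASO2 (SE 0.0930, adjusted p = 0.000275) on the log2 scale. In SK-N-BE(2)c it stood at 50.2, 44.4 and 50.1 with NCA, at 22.1, 41.7 and 34.8 with ASO2 and at 40.9, 15.3 and 15.5 with ASO10. The ASO10 group spread widely, yet all its libraries lay below NCA. It fell with ASO10 (-1.13, SE 0.307, adjusted p = 0.00245), and ASO2 gave -0.58 (adjusted p = 0.0948), which passed with library totals made equal (-0.72, adjusted p = 0.0430) or when only the 2 groups were fitted (adjusted p = 0.0376).

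In NGP, IMMP2L stood at 25.5, 18.6 and 21.5 with NCA, at 13.0, 14.8 and 5.56 with ASO2 and at 15.3, 16.2 and 6.90 with ASO10. It fell with ASO2 (-1.004, SE 0.390, adjusted p = 0.0300), and ASO10 gave -0.80 (adjusted p = 0.0849). The ASO2 call rests on few reads. It was lost with DESeq2 (adjusted p = 0.0667), with no filter on low values (adjusted p = 0.0999), without ASO2 replicate 3 (-0.61, adjusted p = 0.193) and without NCA replicate 1 (-0.89, adjusted p = 0.102).

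WWOX and MACROD2 were called in none of their contrasts. WWOX was tested in all 6, with log2 fold changes from -0.26 to 0.23. In IMR32 it ranged from 284 to 345 normalized counts with NCA, from 199 to 308 with ASO1 and from 244 to 279 with ASO2. These gave -0.26 (95% interval -0.47 to -0.05, adjusted p = 0.0654) and -0.25 (-0.46 to -0.04, adjusted p = 0.0679). The ASO1 value passed without ASO1 replicate 2 (-0.35, adjusted p = 0.0151) and the ASO2 value with only the 2 groups fitted (adjusted p = 0.0186). Both passed with a replicate block (adjusted p = 0.00632 and 0.00759). Without ASO1 replicate 1, the library at 199, the ASO1 value was -0.14 (adjusted p = 0.244). Without NCA replicate 4 it was -0.20 (adjusted p = 0.206), and with library totals made equal -0.24 (adjusted p = 0.121). In SK-N-BE(2)c it gave 0.04 with ASO2 and 0.23 with ASO10 (95% interval -0.28 to 0.74). MACROD2 in IMR32 ranged from 57.9 to 77.7 with NCA, from 40.9 to 60.3 with ASO1 and from 40.5 to 57.5 with ASO2, with log2 fold changes of -0.26 (adjusted p = 0.226) and -0.34 (adjusted p = 0.0975). It was under the filter in NGP (4.75 to 13.9 over all libraries) and in SK-N-BE(2)c (0 to 11.1).

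Of the surface and synapse genes, LSAMP had the highest control level per kb in all 3 lines. In IMR32 it stood at 2252, 2160, 2044 and 2127 normalized counts with NCA, at 1682, 1465, 1427 and 1552 with ASO1 and at 1974, 1665, 1694 and 1585 with ASO2. Neither ASO group reached the NCA range. The log2 fold change was -0.49 with ASO1 (SE 0.0630, adjusted p = 7.12e-06) and -0.31 with ASO2 (SE 0.0630, adjusted p = 0.000770). In SK-N-BE(2)c it stood at 344, 289 and 291 with NCA, at 185, 193 and 216 with ASO2 and at 275, 236 and 225 with ASO10. It fell by 0.64 with ASO2 (SE 0.109, adjusted p = 1.00e-05) and by 0.33 with ASO10 (SE 0.109, adjusted p = 0.0120) on the log2 scale. The ASO10 call was lost without ASO10 replicate 3 (-0.27, adjusted p = 0.0717) and without NCA replicate 1 (-0.24, adjusted p = 0.0874). In NGP all 6 ASO libraries (35.3 to 40.4) lay below NCA (46.1 to 46.4), with -0.28 for ASO2 (adjusted p = 0.241) and -0.26 for ASO10 (adjusted p = 0.284).

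PTPRD could be tested in IMR32 and NGP. In IMR32 its normalized counts were 446, 487, 471 and 411 with NCA, 357, 382, 312 and 354 with ASO1 and 413, 340, 376 and 399 with ASO2. ASO1 did not overlap NCA, while 1 ASO2 library (413) lay above the lowest NCA library. It fell by 0.37 with ASO1 (SE 0.0762, adjusted p = 0.00100) and by 0.25 with ASO2 (SE 0.0762, adjusted p = 0.0164) on the log2 scale. The ASO2 call was lost without ASO2 replicate 2 (-0.19, adjusted p = 0.0745), NCA replicate 2 (-0.21, adjusted p = 0.0644) or NCA replicate 3 (-0.23, adjusted p = 0.0502). In NGP it stood at 28.2, 19.5 and 30.8 with NCA, at 10.2, 15.8 and 20.0 with ASO2 and at 18.3, 18.1 and 26.6 with ASO10. The groups overlapped, and it fell with ASO2 (-0.75, SE 0.313, adjusted p = 0.0412), while ASO10 gave -0.30 (adjusted p = 0.434). That call was lost with DESeq2 (adjusted p = 0.0818), with no filter (adjusted p = 0.123), and without ASO2 replicate 1 (-0.51, adjusted p = 0.200), ASO2 replicate 2 (-0.80, adjusted p = 0.0600), NCA replicate 1 (-0.69, adjusted p = 0.113) or NCA replicate 3 (-0.63, adjusted p = 0.131).

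DLG2 was called in SK-N-BE(2)c alone. There it stood at 85.8, 77.6 and 92.5 normalized counts with NCA, at 33.1, 71.6 and 60.0 with ASO2 and at 49.3, 45.0 and 47.3 with ASO10, and neither ASO group overlapped NCA. It fell with ASO2 (-0.69, SE 0.218, adjusted p = 0.00660) and with ASO10 (-0.84, SE 0.218, adjusted p = 0.00169). Without ASO2 replicate 1, the library at 33.1, the ASO2 value was -0.37 (adjusted p = 0.101). In IMR32 the intervals around no change were narrow, at -0.05 with ASO1 (95% interval -0.30 to 0.19) and -0.01 with ASO2 (-0.25 to 0.24). In NGP, with 7.61 to 23.2 counts in a library, they were wide, at 0.10 with ASO2 (-0.70 to 0.90) and -0.37 with ASO10 (-1.17 to 0.43). CSMD1 was tested in NGP alone. It stood at 23.7, 21.3 and 26.7 with NCA, at 17.6, 13.8 and 12.2 with ASO2 and at 9.17, 20.0 and 13.8 with ASO10. All ASO libraries lay below NCA, but neither value passed (ASO2 -0.69, adjusted p = 0.0754; ASO10 -0.76, adjusted p = 0.0539). The ASO10 value passed without ASO10 replicate 2 (-1.013, adjusted p = 0.0228) and with a pseudocount of 5 (-0.61, adjusted p = 0.0436).

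DMD had log2 fold changes of both signs. In SK-N-BE(2)c it stood at 77.4, 80.7 and 74.2 normalized counts with NCA, at 57.5, 69.8 and 60.0 with ASO2 and at 52.1, 48.1 and 45.6 with ASO10. Every ASO library lay below NCA. It fell with ASO10 (-0.66, SE 0.178, adjusted p = 0.00221), and ASO2 gave -0.31 (adjusted p = 0.124), which passed with library totals made equal (-0.45, adjusted p = 0.0287). In IMR32 the values were 0.10 with ASO1 (95% interval -0.08 to 0.28) and 0.14 with ASO2 (-0.05 to 0.32), and in NGP -0.17 and -0.16, none of them called.

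**Figure D2:**
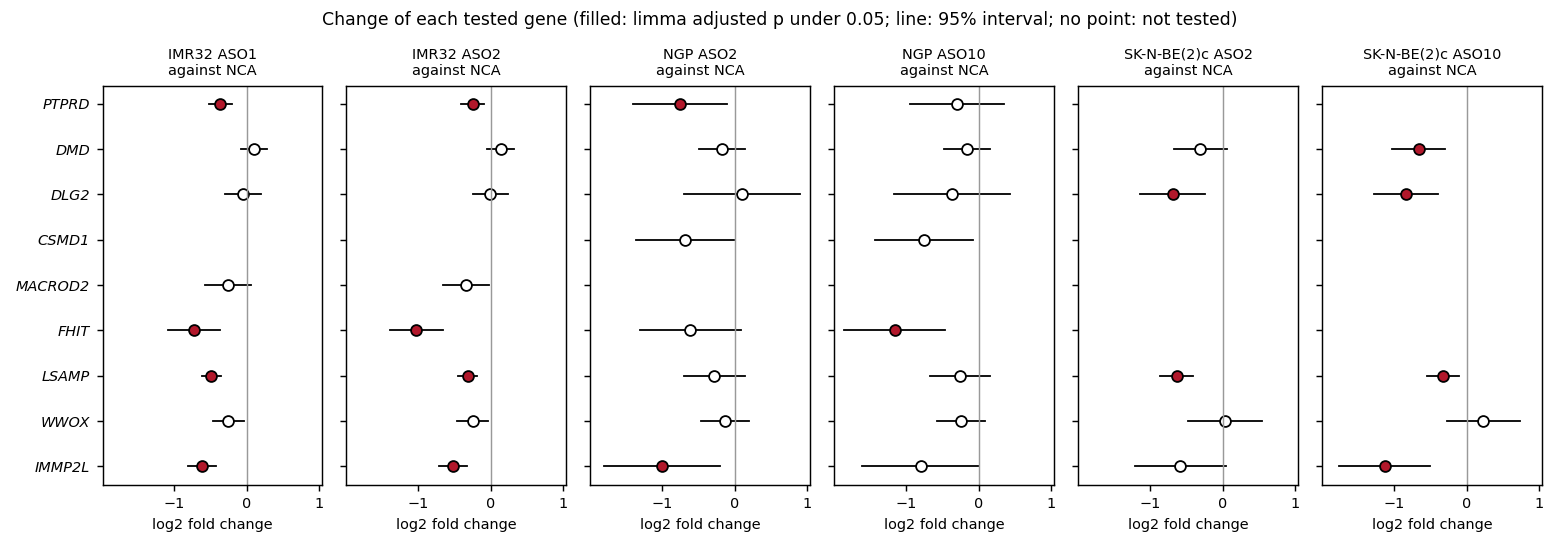
The log2 fold change against NCA (x axis) of each tested gene (y axis) in the 6 contrasts, with its 95% interval; filled points were called. All 17 filled points lie left of 0, the intervals are narrowest in IMR32, and a missing point is a gene that was not tested.

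The ASOs of a line were compared directly. None of 8 members was called between ASO1 and ASO2 in IMR32 (limma; 1 at an unadjusted p under 0.05, 0 with edgeR and 0 with DESeq2), where 21.9% of all genes were. The difference of LSAMP was -0.17 (95% interval -0.30 to -0.04, adjusted p = 0.0539), and it passed without ASO1 replicate 1 (-0.22) or ASO2 replicate 4 (-0.21). It also passed with a replicate block (adjusted p = 0.000428). None of 8 was called between ASO2 and ASO10 in NGP (0 at an unadjusted p under 0.05, 0 with edgeR and 0 with DESeq2), where 58.6% of all genes were. The NGP intervals were wide, as for FHIT at 0.55 (-0.14 to 1.24). Of 5 members in SK-N-BE(2)c 1 differed, against 65.4% of all genes: LSAMP was lower with ASO2 than with ASO10 by -0.31 (SE 0.109, adjusted p = 0.0151). That call was lost without ASO2 replicate 1 (-0.26, adjusted p = 0.0635) or ASO10 replicate 1 (-0.22, adjusted p = 0.103). IMMP2L (0.55, adjusted p = 0.119) passed without ASO2 replicate 1 (0.80, adjusted p = 0.0351) or ASO10 replicate 1 (1.00, adjusted p = 0.00420), and DLG2 (0.15) without ASO2 replicate 1 (0.47, adjusted p = 0.0421).

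Whether an ASO acted differently in SK-N-BE(2)c and NGP was tested as a difference of effects for the 5 members over the filter in each line. None was called for ASO2 (limma; 0 at an unadjusted p under 0.05) or ASO10 (1 at an unadjusted p under 0.05), and edgeR and DESeq2 called 0 as well, while 16.7% and 16.9% of all genes were called. PTPRD (0 in every SK-N-BE(2)c library) and FHIT (under the filter there) give no such comparison. The nearest was DMD with ASO10, more negative in SK-N-BE(2)c by -0.50 (95% interval -0.96 to -0.05, adjusted p = 0.119). For DLG2 with ASO2 the difference was -0.80 (-1.73 to 0.14, adjusted p = 0.248). The call of DLG2 in SK-N-BE(2)c and not in NGP is therefore not shown to be a difference between the lines.

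Protein-coding genes that lie wholly inside a member were read beside their hosts. LRRN3, which encodes a neuronal membrane protein with leucine-rich repeats, lies inside IMMP2L on the opposite strand. In IMR32 it stood at 51.9, 49.3, 59.3 and 70.7 normalized counts with NCA and at 76.3, 106, 102 and 103 with ASO2, and it rose by a log2 fold change of 0.73 (adjusted p = 0.000469). With ASO1 it ranged from 44.0 to 52.9, a value of -0.27 (adjusted p = 0.166). It rose with ASO2 in NGP too (0.61, adjusted p = 2.54e-09), from 2450 to 2669 with NCA to 3629 to 4202, and in SK-N-BE(2)c (0.45, adjusted p = 6.04e-07). With ASO10 it fell in SK-N-BE(2)c (-0.42, adjusted p = 2.93e-06), and gave 0.10 in NGP (adjusted p = 0.138). FLRT3, a membrane protein that binds latrophilins, lies inside MACROD2 on the opposite strand. It rose with ASO2 in NGP, from 463 to 563 with NCA to 854 to 1102 (0.90, adjusted p = 2.23e-08), and in SK-N-BE(2)c, from 323 to 347 to between 1209 and 1256 (1.87, adjusted p = 3.96e-17). With ASO10 it fell in NGP (-0.27, adjusted p = 0.0245). In IMR32 it gave -0.11 with ASO1 and -0.01 with ASO2, and neither was called.

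**Figure D3:**
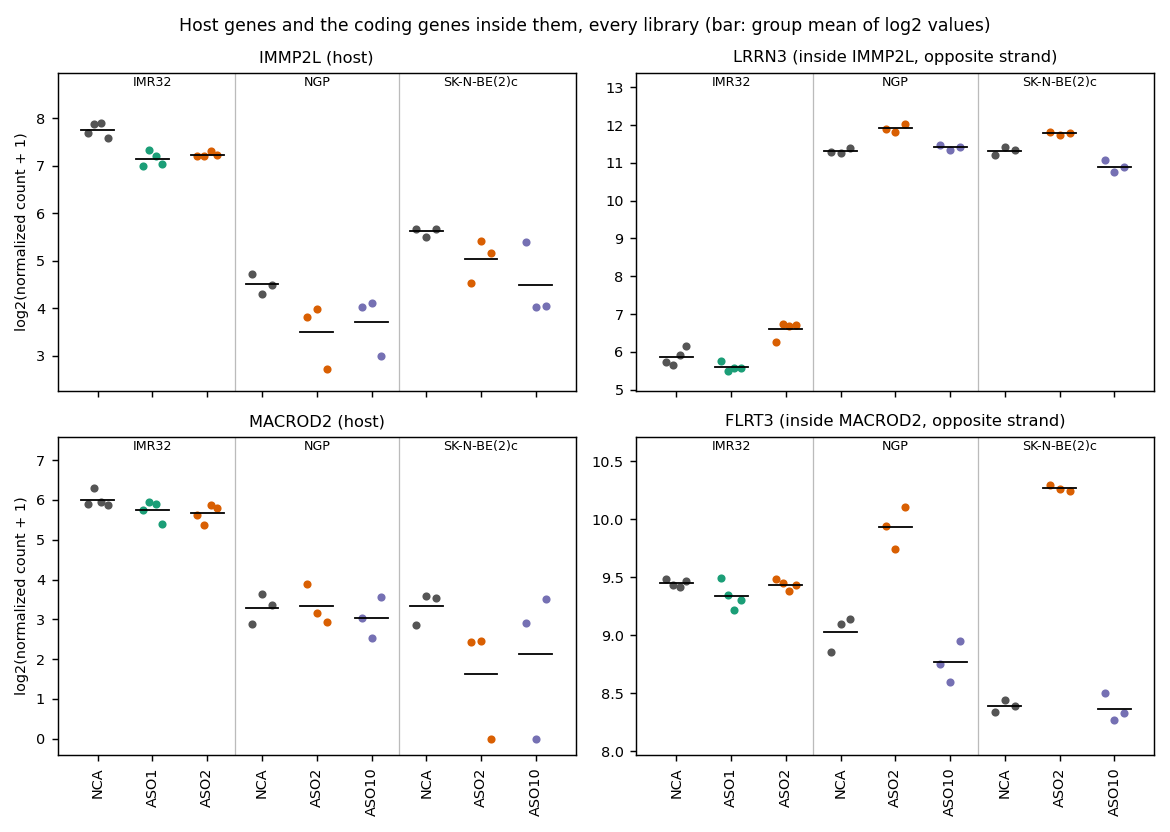
The hosts IMMP2L and MACROD2 (left) and the coding genes inside them, LRRN3 and FLRT3 (right), as log2(normalized count + 1) of every library with group means as bars. The ASO2 points of LRRN3 lie above NCA in all 3 lines and those of FLRT3 in NGP and SK-N-BE(2)c, while the IMMP2L ASO2 points lie below NCA.

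The relatives of these genes give a comparison by function. The shares called lower over all tested genes, against which each list is read, are those given above (14.4% and 14.8% in IMR32 with ASO1 and ASO2, 28.1% and 27.6% in NGP and 33.4% and 31.1% in SK-N-BE(2)c with ASO2 and ASO10). Of 18 paralogues and close family members, 5 of 14 tested were called lower with ASO1 and 2 of 14 with ASO2 in IMR32, with none higher. In NGP 6 of 15 (ASO2) and 5 of 15 (ASO10) were lower, and in SK-N-BE(2)c 5 of 13 and 4 of 13, with 2 higher in each of these 4 contrasts. The relatives called lower made up 35.7% and 14.3% of those tested in IMR32, 40% and 33.3% in NGP and 38.5% and 30.8% in SK-N-BE(2)c, within 1 gene of the all-gene shares but for ASO1 in IMR32 and ASO2 in NGP. DLG3 and DLG4 are scaffolds of the same family as DLG2. DLG4 rose in SK-N-BE(2)c (0.49 and 0.62 with ASO2 and ASO10) and NGP (0.46 and 0.35), each with an adjusted p of at most 0.00706. It fell with ASO2 in IMR32 (-0.18, adjusted p = 0.0405), where ASO1 gave -0.10 (adjusted p = 0.309). DLG3 rose with ASO10 in NGP (0.47, adjusted p = 2.06e-05). In SK-N-BE(2)c it stood at 0 to 2.09 normalized counts with NCA, 0.906 to 3.60 with ASO2 and 25.6 to 33.5 with ASO10. DLG3 passed the filter there only through its ASO10 libraries. Its call, counted above as higher, is therefore no support for a rise. UTRN, the utrophin gene and the close relative of DMD, fell with ASO2 in NGP (-0.70, adjusted p = 0.000281) and SK-N-BE(2)c (-0.76, adjusted p = 3.62e-07), with ASO1 in IMR32 (-0.37, adjusted p = 0.0208) and with ASO10 in SK-N-BE(2)c (-0.42, adjusted p = 0.00124).

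Partners of dystrophin were counted in the same way. Of 16 genes of its membrane complex, 4 of 13 and 5 of 13 tested fell in IMR32 (ASO1, ASO2), 5 of 9 and 3 of 9 in NGP (ASO2, ASO10) and 4 of 7 and 3 of 7 in SK-N-BE(2)c, with 1 rising in each contrast but the last, which had 0. The shares that fell (30.8%, 38.5%, 55.6%, 33.3%, 57.1% and 42.9% in that order) were above the all-gene shares, by less than 1 gene in the ASO10 contrasts. The list's median log2 fold change ran from -0.21 to -0.49, against -0.03 to 0.01 over all genes. DTNB (beta-dystrobrevin) fell in all 6 contrasts, by 0.25 to 0.65 on the log2 scale. Of 25 synaptic partners, 6 of 23 and 7 of 23 fell in IMR32, 4 of 16 and 8 of 16 in NGP and 4 of 12 and 5 of 12 in SK-N-BE(2)c, while 0, 3, 5, 2, 5 and 6 rose in the same order. The share that fell was near that of all genes with ASO2 in NGP (25%) and SK-N-BE(2)c (33.3%), and 26.1%, 30.4%, 50% and 41.7% in the other contrasts. NLGN3, a neuroligin, rose in NGP with ASO10 (0.72, adjusted p = 0.00292). In SK-N-BE(2)c it stood at 8.37 to 11.6 normalized counts with NCA, 19.2 to 36.5 with ASO2 and 72.5 to 99.2 with ASO10. Its NCA mean there (9.67) was under the filter, which NLGN3 passed through its ASO libraries. The 2 NLGN3 calls in SK-N-BE(2)c, counted above as rising, are therefore no support for a rise. DLGAP3, a scaffold that binds the DLG proteins, fell with both ASOs in NGP (-0.84 and -1.05) and SK-N-BE(2)c (-0.62 and -0.66).

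Genes that keep fragile sites stable during replication were mixed. All 30 were tested in each line. With ASO1 and ASO2 in IMR32, 8 and 7 fell and 1 and 2 rose. In NGP 16 (ASO2) and 11 (ASO10) fell and 4 and 6 rose, and in SK-N-BE(2)c 17 and 10 fell and 5 and 11 rose. The shares that fell were 26.7% and 23.3% in IMR32, 53.3% and 36.7% in NGP and 56.7% and 33.3% in SK-N-BE(2)c, the last of these near the all-gene share. POLH, a polymerase that copies damaged templates, rose in all 6 contrasts, from 0.34 with ASO1 in IMR32 (adjusted p = 0.000323) to 2.69 with ASO10 in NGP (adjusted p = 3.68e-16). Its NGP values were 151 to 235 normalized counts with NCA, 705 to 800 with ASO2 and 1165 to 1268 with ASO10. FANCI, a Fanconi anaemia protein, and WRN, a RecQ helicase, fell in all 6, and the largest log2 fold changes, -1.40 for FANCI and -0.996 for WRN, were both with ASO2 in SK-N-BE(2)c.

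Other genes in fragile sites were counted last. Of 20 listed, 16 of 19 tested fell with ASO1 and 10 of 19 with ASO2 in IMR32, 7 of 14 and 12 of 14 with ASO2 and ASO10 in NGP, and 6 of 8 and 5 of 8 in SK-N-BE(2)c. At most 2 rose in a contrast. These shares (84.2%, 52.6%, 50%, 85.7%, 75% and 62.5%) were above the all-gene shares in each contrast. NBEA, a trafficking protein of neurons, fell in all 6 contrasts, by 0.25 to 0.89 on the log2 scale. ESRRG, an orphan nuclear receptor, fell with ASO10 by a log2 fold change of -1.79 in NGP. It fell by a log2 fold change of -2.11 with ASO10 in SK-N-BE(2)c, where its NCA and ASO10 values were 1311 to 1430 and 267 to 375 normalized counts. It also fell with ASO1 in IMR32 (-0.42) and in SK-N-BE(2)c with ASO2 (-0.60), and gave 0.14 with ASO2 in NGP (adjusted p = 0.417). LPP, a focal adhesion protein, fell in 5 of 6 contrasts and gave -0.47 (adjusted p = 0.223) with ASO10 in SK-N-BE(2)c.

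Length itself was then set beside the changes. Genes were placed in 6 bins of genomic span, with bin edges chosen after the data were seen, and this is a description with no test. With ASO1 in IMR32 the share called lower was 4.53% of 5259 genes under 10 kb, 14.4% of 4489 genes of 30 to 100 kb, 36.7% of 2294 genes of 100 to 300 kb, 63.1% of 621 genes of 300 to 1000 kb and 64% of 50 genes over 1000 kb. In the other 5 contrasts the share under 10 kb was 6.01% to 18.6% and that over 1000 kb 52% to 66.7%. The median log2 fold change was above 0 under 10 kb in all 6 contrasts, and over 1000 kb it was -0.37 and -0.26 in IMR32 (ASO1, ASO2), -0.48 and -0.49 in NGP (ASO2, ASO10) and -0.64 and -0.66 in SK-N-BE(2)c. The longest bin holds 27 to 50 genes, members included. The genes over 1 Mb that are not members were called lower in 29 of 43 and 23 of 43 cases in IMR32, 19 of 31 and 23 of 31 in NGP and 15 of 23 in both SK-N-BE(2)c contrasts. The members' counts (4 of 8, 4 of 8, 2 of 8, 1 of 8, 2 of 5 and 4 of 5 in that order) were not tested against these. They include IMMP2L, which spans 0.899 Mb and so lies outside the longest bin.

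**Figure D4:**
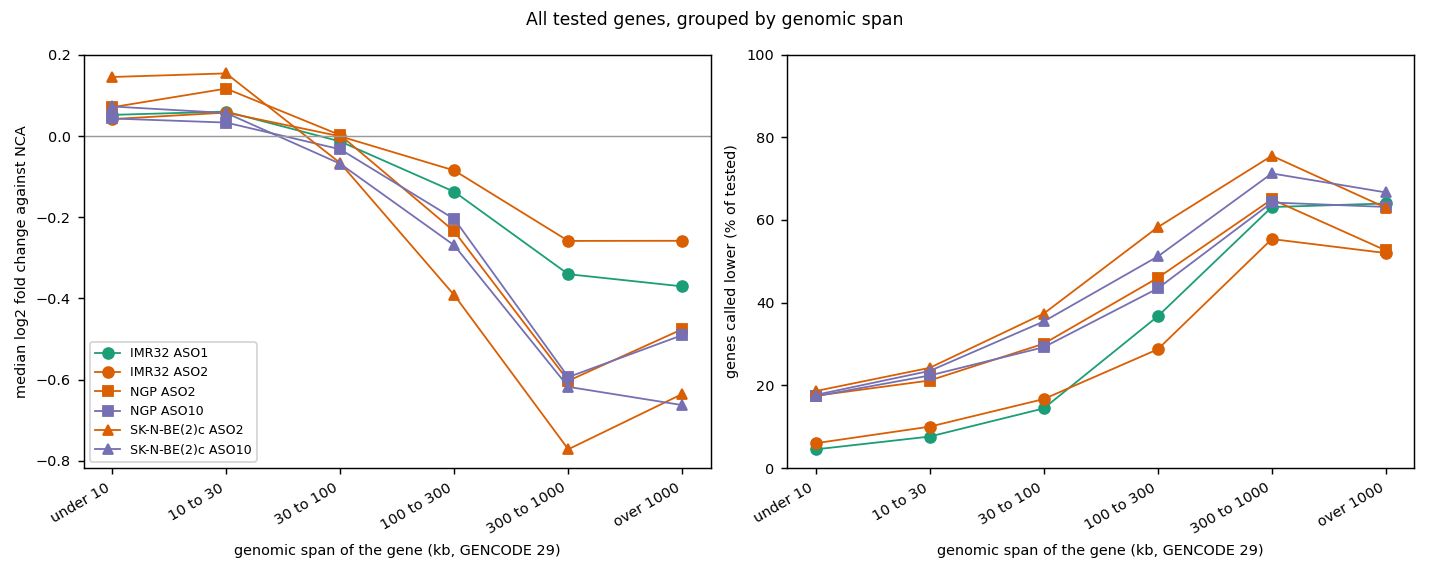
Median log2 fold change against NCA (left) and percentage of tested genes called lower (right) by genomic span of the gene in kb, for all tested genes in the 6 contrasts. In each contrast the share called lower is larger over 1000 kb than under 10 kb. In all contrasts but ASO1 in IMR32 (63.1% against 64%) it is larger at 300 to 1000 kb than over 1000 kb. With ASO2 it is 65% against 52.6% in NGP and 75.5% against 63% in SK-N-BE(2)c. With ASO10 it is 64.2% against 63.2% in NGP and 71.3% against 66.7% in SK-N-BE(2)c.

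Across libraries, the members tested in all 3 lines were compared with 11594 genes, over 30 libraries centred on their line. These correlations share libraries and depth and are descriptions. Among the members themselves Pearson's r was highest for DLG2 with DMD (0.54), LSAMP with IMMP2L (0.53) and DLG2 with IMMP2L (0.51), and WWOX with DMD gave -0.08. The genes most like LSAMP were INSR (0.91) and MBTPS2 (0.89). IMMP2L was most like RANBP17 (0.80) and EXOC6B (0.80), DMD most like ZFC3H1 (0.81) and EPM2AIP1 (0.80), DLG2 most like POLR1HASP (0.71) and CEP44 (0.69), and WWOX most like UNC80 (0.67) and ADCK1 (0.59).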

How the data were processed

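The data are RNA sequencing of 30 libraries. Per the labels' protocols, libraries came from a stranded total RNA kit read as pairs or a stranded mRNA kit read from 1 end; which library had which kit is not given in the sources used here, nor is the annotation or the use of strand in counting. The submitters' processing notes name FastQC 0.11.8, cutadapt 1.18, STAR 2.6.0, HTSeq 0.6.1, DESeq2 1.42.0 and hg19 (GRCh37), with no roles. The deposited values are normalized counts per the labels, treated as a signal (counts divided by a size factor per library). Steps between low values gave back whole reads for 100% of values (tolerance 0.05). IMR32 was scaled alone, and NGP and SK-N-BE(2)c jointly (median ratio 1.012 in every library), so IMR32 levels were not set against theirs. Every per-sample column was used, with 0 left over. In IMR32 up to 0.210% of a library lay in entries without a gene ID, which were left out.

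The main test was limma 3.58.1 (R 4.3.3) on log2(value + 1), with group means, a mean-variance trend and Benjamini-Hochberg adjustment over all genes with a mean of at least 10 (13556 for SK-N-BE(2)c, 14440 for NGP, 14537 for these combined and 17309 for IMR32). This understates changes of low genes. As reads could be recovered, edgeR 4.0.16 (quasi-likelihood) and DESeq2 1.42.0 were run as alternatives; edgeR called 4897 and 5630 genes in IMR32 (ASO1, ASO2 against NCA), 8495 and 7928 in NGP (ASO2, ASO10) and 9080 and 8073 in SK-N-BE(2)c, against 4850, 5607, 8477, 7850, 9078 and 7981 with limma. Other alternatives were pseudocounts of 0.1 and 5, no filter, a mean of at least 50, making library totals equal, fitting only the groups compared, a replicate block, a log2 fold change of at least 1 and leaving out each library. The limma fit was checked on simulated data.

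Members and lists were chosen with earlier results of these data known. Genes named from a list are the 3 tested in all lines with the largest mean absolute log2 fold change over the 6 contrasts against NCA; coding genes inside a member, and the 2 genes most correlated with a member, are named too. A gene that the rule would name is not reported here. Labels do not say that libraries of a group came from separate cultures, so p-values measure the spread between these samples, which may be technical. The control columns of NGP and SK-N-BE(2)c carry another spelling for replicate 1 than for replicates 2 and 3, which could be another oligonucleotide; the titles place all 3 in 1 group. GENCODE 29 (GRCh38) served only for span, exon length, strand and gene nesting. Promoter windows of 8 of the 9 members were looked up in RefSeq.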

Additional observations from a re-analysis of the deposited data

Results flagged for a closer look

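In each of 24 groups of 4 IMR32 libraries (a member and an ASO), the highest and lowest library were compared with the rest, and 2 groups held 1 library far from the others. Chance flags about 1 in 20 groups. MACROD2 stood at 77.7 normalized counts in NCA replicate 2, against 57.9 to 60.4 in the other NCA libraries. DMD stood at 208 in ASO2 replicate 4, against 184 to 188 in the other ASO2 libraries. Neither gene was called in IMR32.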

How the results depend on the processing

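Of the 17 member changes called against NCA, 11 kept their direction and stayed called under every alternative that gave them a value, the minimum fold below apart, and none of the 17 reversed. With a minimum log2 fold change of 1, 0 members were called with ASO1 and 1 with ASO2 in IMR32, 1 with ASO2 in NGP, and for SK-N-BE(2)c 0 (ASO2), 1 (ASO10) and 0 (ASO2 against ASO10). NGP with ASO2 had 0 members called with no filter, 0 with a mean of at least 50 and 0 with DESeq2. NGP with ASO10 had 2 with a pseudocount of 5 and 0 with a mean of at least 50. The mean of at least 50 left 2 called between the NGP and SK-N-BE(2)c controls. A higher mean tests fewer members. With equal library totals, the ASO2 contrast of SK-N-BE(2)c had 4. The cause of the other shifts was not tested. Leaving out 1 library gave 4 to 5 members called with ASO1 and 3 to 4 with ASO2 in IMR32, 0 to 1 between them, 0 to 2 with ASO2 and 1 with ASO10 in NGP, and for SK-N-BE(2)c 1 to 2 (ASO2), 3 to 4 (ASO10) and 1 to 2 (ASO2 against ASO10). Without NCA replicate 1, whose column is spelled apart, NGP with ASO2 had 0.

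The labels do not give the meaning of replicate numbers. Among the genes tested, same-numbered libraries did not deviate together in every pair of any 2 groups (IMR32 ASO1 and NCA: correlations 0.055 to 0.318, 2 of 4 over 0.1). The check was also run, after the data were seen, at means of at least 1, 50, 200 and 1000, and the answer depended on this: for IMR32 ASO1 and NCA all 4 pairs were over 0.1 at 50 (0.112 to 0.564), 200 and 1000, and for ASO2 and NCA at 1000, but none at 1. The check thus does not settle whether the IMR32 libraries are paired. The main fit was kept without a block, and results with a block are given beside it. With a replicate block, IMR32 had 5 members called with ASO1 and 5 with ASO2 (WWOX added in each, adjusted p = 0.00632 and 0.00759) and 1 between them (LSAMP, adjusted p = 0.000428), and calls over all genes rose to 6609, 7419 and 5677 from 4850, 5607 and 3795. The member counts in NGP and SK-N-BE(2)c were the same with the block. No paired analysis was possible for the controls of NGP against SK-N-BE(2)c because the lines do not share cultures.

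In 40 cases, over 18 pairs of gene and contrast, a value changed sign. None had been called (lowest adjusted p 0.502), and 33 came from leaving out 1 library. Equal library totals gave 0.044 for WWOX, 0.0046 for DLG2 and 0.019 for DMD (IMR32, ASO1 against ASO2) and -0.10 for WWOX (SK-N-BE(2)c, ASO2). WWOX between the IMR32 ASOs was 0.011 with edgeR and 0.010 with DESeq2, and FHIT 0.053 with a pseudocount of 5 in the ASO10 difference between lines. With 1 library left out, IMR32 values of DLG2 ranged from -0.15 to 0.014 (ASO1) and from -0.094 to 0.097 (ASO2). Between the IMR32 ASOs the ranges were -0.098 to 0.11 for WWOX, -0.019 to 0.20 for MACROD2, -0.15 to 0.039 for DLG2 and -0.060 to 0.024 for DMD. In NGP DLG2 ranged from -0.20 to 0.38 with ASO2, and between the ASOs LSAMP from -0.062 to 0.030, IMMP2L from -0.56 to 0.19, CSMD1 from -0.19 to 0.33 and DMD from -0.081 to 0.099. The SK-N-BE(2)c ranges were -0.16 to 0.36 for WWOX with ASO2 and, ASO2 against ASO10, -0.39 to 0.12 for WWOX and -0.078 to 0.47 for DLG2. The differences between lines ranged from -0.89 to 0.053 for FHIT and -0.029 to 0.49 for WWOX with ASO2, and from -0.49 to 0.24 for FHIT and -0.15 to 0.017 for LSAMP with ASO10. Depth limits the NGP values, where 6 of 8 tested members had a mean under 50.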
